A study of Mus musculus with 16 samples.

Results

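The collagen alpha chain genes of mouse liver are described here. They were taken as every row of the read count table whose symbol is Col, a number, a and a number, such as Col1a1, which gave 44 chains among 48051 rows with a symbol. Of these, 25 chains passed the filter on low counts and were tested among 14346 genes. The other 19 had too few reads and are given by their counts.

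Collagens are secreted proteins in which chains wind around each other as a helix of 3 strands, and glycine at every 3 residues lets the strands pack. Fibrillar chains, such as those of types I, III and V, build the tension-bearing fibrils that accumulate in liver scarring. Type IV chains form the sheet of basement membranes, type VI chains form beaded filaments, FACIT chains decorate fibrils, multiplexins sit in basement membrane zones, and a few chains span the cell membrane. In liver, hepatic stellate cells, portal fibroblasts and myofibroblasts are known as the main makers of fibrillar collagen, and type XVIII collagen is known to be made by hepatocytes.

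PolyA RNA of liver from C57BL/6J mice was sequenced in 4 groups of 4 libraries, all with a labelled time of 10 days. KO-EtOH were hepatic TSC1 knockouts under Gao-binge feeding, in which an alcohol diet ends with an alcohol gavage, and KO-ctr were hepatic TSC1 knockouts on control diet. WT-EtOH and WT-ctr were wild types under the same regimens. Tsc1 encodes part of the complex that restrains the growth kinase mTORC1. The labels do not give the Cre line, the deleted exons, the age or the sex of the mice. Separate animals are not stated for the libraries of a group either, so p-values measure the spread between libraries, which may be technical.

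The helix-forming repeat is the feature that the chains share, and it can be read in their coding sequence as a glycine codon, GGN, at every 3 codons. The chains below are shown because 4 of them are the type V chains and the neighbour of Col5a2, and the last, with Col5a3, fell in all 4 comparisons. Each line is the first 54 coding bases of the longest unbroken run, with the glycine codon that opens each triplet of codons in capitals (a further glycine codon within a triplet is in lower case), on the coding strand of GRCm38 in the GENCODE M21 annotation. The coordinates span introns.
Col5a2, chr1:45423682-45426996, minus strand: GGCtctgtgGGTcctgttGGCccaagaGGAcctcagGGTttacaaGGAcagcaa
Col3a1, chr1:45323762-45325377, plus strand: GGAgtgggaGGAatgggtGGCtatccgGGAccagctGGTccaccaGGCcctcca
Col5a1, chr2:27964080-27965259, plus strand: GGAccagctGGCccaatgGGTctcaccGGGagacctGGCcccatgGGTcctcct
Col5a3, chr9:20801113-20801260, minus strand: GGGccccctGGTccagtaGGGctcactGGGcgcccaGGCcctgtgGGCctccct
Col27a1, chr4:63244040-63245113, plus strand: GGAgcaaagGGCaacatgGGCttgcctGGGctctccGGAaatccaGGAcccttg
Col5a2 had 339 triplets in its longest run, Col3a1 344, Col5a1 338 and Col5a3 337, whereas Col27a1 had 217. In Col4a1 the longest run was 40 triplets although 443 triplets lay in runs of at least 5. Among FACIT chains the longest run was 32 triplets in Col12a1, Col14a1 and Col20a1, 52 in Col16a1 and 113 in Col22a1, a range that overlaps type IV, and it was 30 in Col18a1.

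Total counts ran from 14.75 M to 21.757 M, and levels are given in CPM, the standard unit of counts per library size, with the library size adjusted by TMM. In these units 1 read was worth 0.0517 to 0.0625 CPM. Tsc1 had 11.8, 14.9, 14.0 and 16.4 CPM in KO-EtOH, 23.4, 16.8, 16.2 and 17.7 CPM in KO-ctr, 19.2, 19.8, 18.7 and 15.8 CPM in WT-EtOH, and 24.3, 27.6, 24.9 and 29.7 CPM in WT-ctr. The values of each group, here and below, follow the replicate numbers. The log2 fold change of Tsc1 was -0.52 ± 0.13 (SE) in KO-ctr against WT-ctr (adjusted p = 0.0147), where the groups did not overlap, and -0.36 ± 0.13 in KO-EtOH against WT-EtOH (adjusted p = 0.0386), where they did. Neither call held with scaling to the total count (-0.40, adjusted p = 0.112, and -0.17, adjusted p = 0.422). The first was called in 14 of 16 fits that left out a library (lost without KO-ctr 3 or WT-ctr 4), and the second in 7 of 16, with adjusted p up to 0.117. Tsc1 was also lower in WT-EtOH than in WT-ctr (-0.53 ± 0.13, adjusted p = 0.00488), with no overlap and a call in 16 of 16 such fits, and KO-EtOH against KO-ctr gave -0.37 ± 0.13 (adjusted p = 0.0685). The counts cover the whole gene and not a deleted part alone. By the gap rule given at the end, KO-EtOH 2 stood apart as the highest KO-EtOH library in 7 of the 25 tested chains. KO-EtOH 2 was also the highest KO-EtOH library in further chains, such as Col3a1, Col4a2 and Col5a2. Chain results that rest on it are given with and without it, and the lists were refitted without it after seeing the data. In bulk tissue, fewer cells of a type and less RNA per cell cannot be told apart.

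Per length, Col18a1 was far above every other chain in all 4 groups. It encodes type XVIII collagen, the precursor of endostatin. Its level was 113 ± 9.64 CPM per kb of annotated exons in KO-EtOH, 137 ± 10.2 in KO-ctr, 113 ± 14.0 in WT-EtOH and 133 ± 15.7 in WT-ctr (SD, n = 4 each). Col18a1 took 68.4 ± 10.9% of all collagen counts in KO-EtOH, 74.7 ± 1.18% in KO-ctr, 76.8 ± 3.82% in WT-EtOH and 73.7 ± 6.69% in WT-ctr. The lowest share, 52.1%, was in KO-EtOH 2.

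The next chain differed by group. It was Col5a2 in both knockout groups, at 12.5 ± 3.17 CPM per kb in KO-EtOH and 12.1 ± 3.87 in KO-ctr. In WT-EtOH it was Col4a1, at 6.71 ± 1.82 CPM per kb. In WT-ctr it was Col5a3, at 8.87 ± 1.11 CPM per kb, which is within its spread of Col27a1 at 8.42 ± 2.86. The group means of the type I, III and VI chains reached at most 3.31 CPM per kb. All collagen rows together held 1226 ± 260 CPM in KO-EtOH, 1388 ± 104 in KO-ctr, 933 ± 99.4 in WT-EtOH and 1250 ± 20.9 in WT-ctr (SD, n = 4 each) when scaled to the unadjusted total count. The WT-EtOH libraries, at 800.1 to 1021, lay below every library of the other groups, whose lowest value was 1044 in KO-EtOH. With TMM scaling WT-EtOH still lay below both control groups but overlapped KO-EtOH, at 1069 to 1344 CPM in KO-EtOH, 1175 to 1407 CPM in KO-ctr, 976 to 1141 CPM in WT-EtOH and 1202 to 1287 CPM in WT-ctr.

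**Figure D1:**
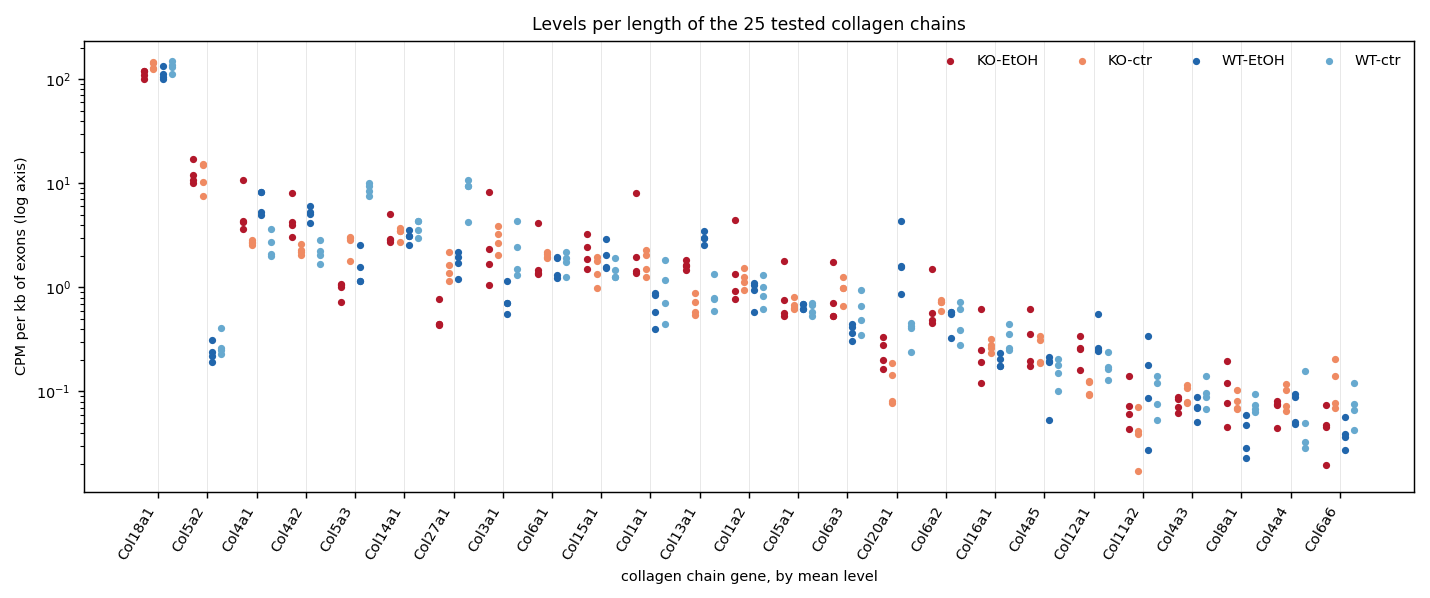
Levels of the 25 tested chains in CPM per kb of annotated exons, on a log axis, with 1 point per library and the groups coloured. Col18a1 lies near 100 CPM per kb in all 16 libraries, and Col5a2 is near 10 in the 8 knockout libraries and below 1 in the 8 wild-type libraries.

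Calls were made at an adjusted p under 0.05. On control diet, 4 of 25 chains were called between genotypes, 1 higher and 3 lower in KO-ctr, where 12.3% of all genes tested were called, 7.4% higher and 4.91% lower. After ethanol, 9 of 25 were called between genotypes, 5 higher and 4 lower in KO-EtOH, where 38.7% of all genes were called, 19.6% higher and 19.1% lower. Ethanol in wild type gave 8 calls, 5 higher and 3 lower in WT-EtOH, beside 33.5% of all genes, 17.6% higher and 15.9% lower. Ethanol in knockout gave 7 calls, 4 higher and 3 lower in KO-EtOH, beside 14.1% of all genes, 7% higher and 7.11% lower. The shares of chains called were 16%, 36%, 32% and 28%. Chains moved in both directions in each comparison, and the median log2 fold change over the 25 was 0.05, 0.16, -0.16 and 0.15 in the same order, beside 0.01, -0.01, -0.01 and 0.00 over all genes. The comparisons share libraries: WT-ctr and KO-EtOH, for example, each serve in 2 of them.

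**Figure D2:**
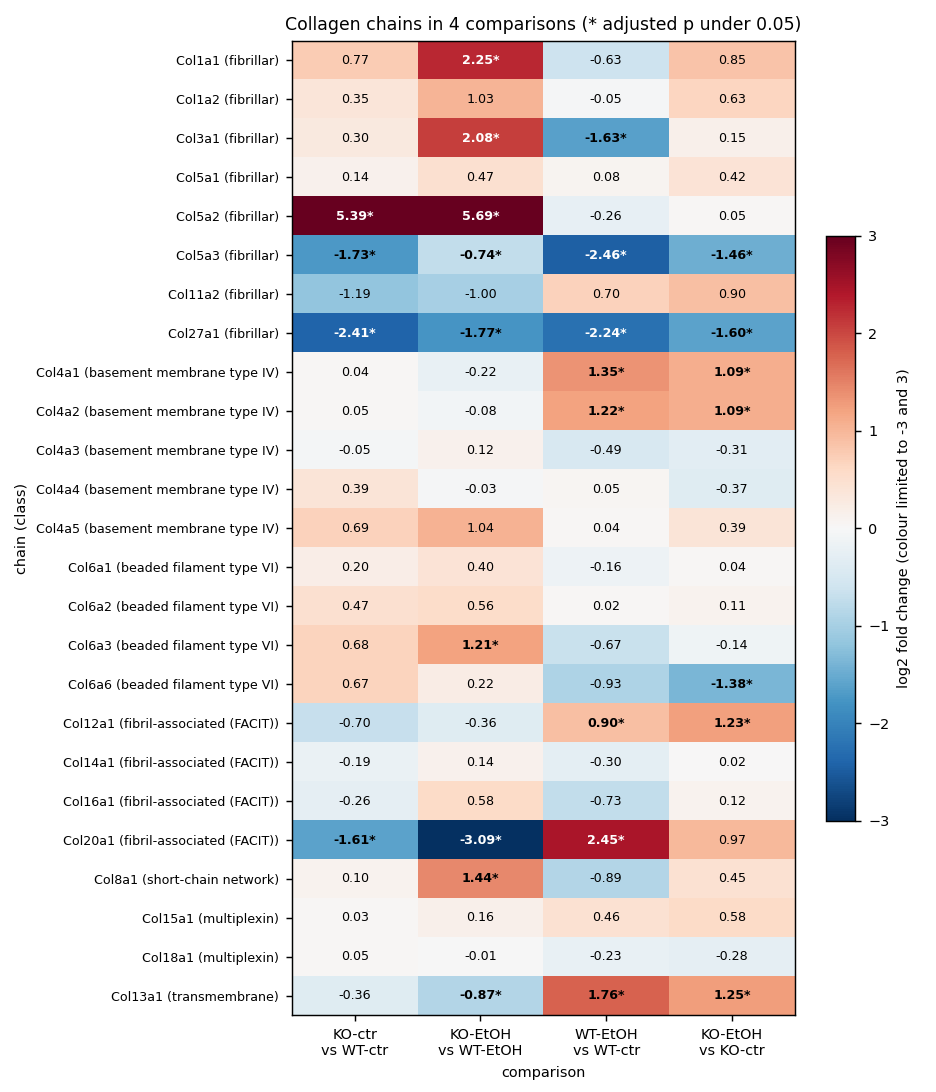
Log2 fold change of the 25 tested chains in the 4 pairwise comparisons, grouped by class, with the first named group over the second and calls marked by an asterisk. Col5a2 is red in both genotype comparisons, Col5a3 and Col27a1 are blue in all 4, and Col4a1 and Col4a2 are red in both ethanol comparisons.

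Col5a2 had the largest difference of the 25 tested chains. It encodes the alpha2 chain of type V collagen, which nucleates and limits the width of type I fibrils, and was higher in knockout livers on both diets. Its levels were 104, 164, 115 and 95.8 CPM in KO-EtOH, 98.0, 72.3, 145 and 148 CPM in KO-ctr, 2.27, 2.12, 1.84 and 2.98 CPM in WT-EtOH, and 2.50, 3.89, 2.40 and 2.21 CPM in WT-ctr. Every knockout library was far above every wild-type library. The log2 fold change was 5.39 ± 0.28 (SE) in KO-ctr against WT-ctr (edgeR adjusted p = 1.08e-08) and 5.69 ± 0.29 in KO-EtOH against WT-EtOH (adjusted p = 6.41e-09), and over all alternatives it lay between 5.25 and 5.93. Ethanol gave 0.05 ± 0.22 in knockout (95% interval -0.43 to 0.52, adjusted p = 0.918) and -0.26 ± 0.29 in wild type (95% interval -0.88 to 0.37, adjusted p = 0.534).

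The partner chain and the neighbouring gene of Col5a2 were not called between genotypes on control diet. Col5a1, the alpha1 chain with which Col5a2 forms its trimer, had 4.81, 15.1, 6.47 and 4.49 CPM in KO-EtOH, 5.73, 5.38, 5.24 and 6.85 CPM in KO-ctr, 5.84, 5.93, 5.23 and 5.29 CPM in WT-EtOH, and 4.90, 5.75, 4.48 and 5.98 CPM in WT-ctr. Its levels overlapped in every comparison, with log2 fold changes of 0.14 ± 0.29 (KO-ctr against WT-ctr, adjusted p = 0.818) and 0.47 ± 0.29 (KO-EtOH against WT-EtOH, adjusted p = 0.205), the second being -0.08 (adjusted p = 0.743) without KO-EtOH 2. Per length, Col5a1 was at 0.91 ± 0.59 CPM per kb in KO-EtOH, 0.68 ± 0.09 in KO-ctr, 0.66 ± 0.04 in WT-EtOH and 0.62 ± 0.08 in WT-ctr, whereas Col5a2 was at 0.24 ± 0.05 in WT-EtOH and 0.29 ± 0.08 in WT-ctr. Col5a2 (chr1:45374321-45503282, minus strand) and Col3a1 (chr1:45311538-45349706, plus strand) point toward one another with 24614 bases between them. Col3a1 had a log2 fold change of 0.30 ± 0.54 in KO-ctr against WT-ctr (adjusted p = 0.78). None of the 9659 stretches of 75 bases in Col5a2 transcripts, the read length, occurred in another annotated gene, and its exons overlapped no other gene.

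The log2 ratio of Col5a2 to Col5a1 averaged 4.08 ± 0.46 in KO-EtOH, 4.24 ± 0.45 in KO-ctr, -1.25 ± 0.30 in WT-EtOH and -0.94 ± 0.35 in WT-ctr (SD, n = 4 each). The ratio of Col5a2 to Col3a1 averaged 2.30 ± 0.94 in KO-EtOH, 1.96 ± 0.63 in KO-ctr, -1.66 ± 0.50 in WT-EtOH and -2.93 ± 0.46 in WT-ctr. Both genotype differences of each ratio reached the smallest two-sided p that an exact permutation test of 4 libraries against 4 can give, 0.0286, and 0.098 after adjustment over the 24 ratio comparisons. Of the 24, 7 reached 0.0286 and 0 passed after adjustment.

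**Figure D3:**
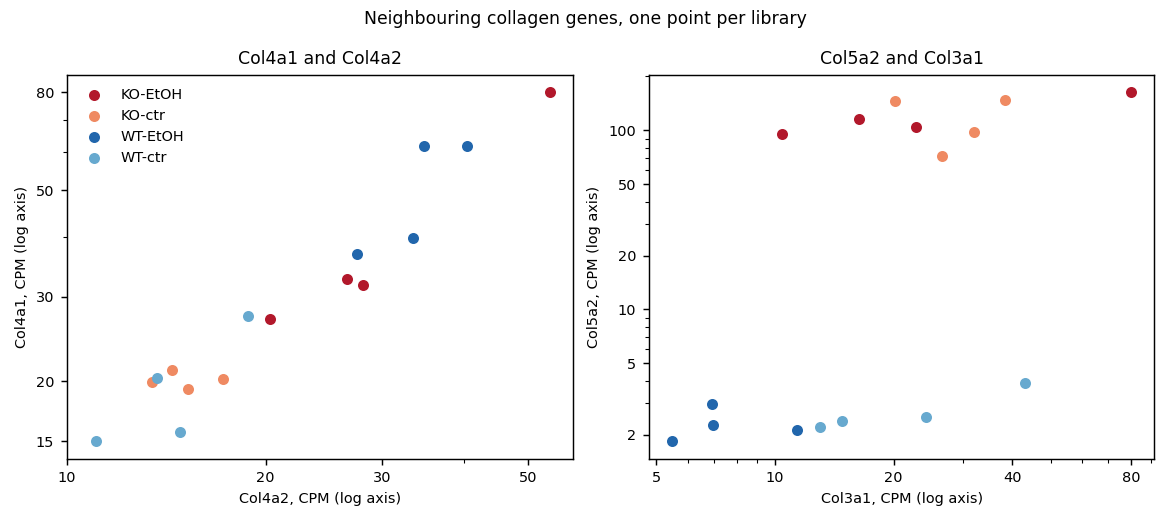
CPM of Col4a1 against Col4a2 (left) and of Col5a2 against Col3a1 (right), on log axes, with 1 point per library. Col4a1 and Col4a2 lie along one line in all groups, whereas the 8 knockout libraries lie above 70 CPM of Col5a2 and the 8 wild-type libraries below 4 CPM over an overlapping range of Col3a1.

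Col5a3 and Col27a1 were lower in all 4 comparisons, so wild-type control livers had the most of both. Col5a3 encodes the alpha3 chain of type V collagen. It had 7.22, 4.93, 7.36 and 6.86 CPM in KO-EtOH, 19.3, 20.98, 12.3 and 20.1 CPM in KO-ctr, 10.8, 7.93, 17.5 and 7.77 CPM in WT-EtOH, and 57.9, 63.9, 51.2 and 68.6 CPM in WT-ctr. No WT-ctr library overlapped any other group. On the log2 scale Col5a3 changed by -1.73 ± 0.23 in KO-ctr against WT-ctr (adjusted p = 1.65e-04), -2.46 ± 0.24 in WT-EtOH against WT-ctr (adjusted p = 3.16e-06) and -1.46 ± 0.24 in KO-EtOH against KO-ctr (adjusted p = 0.00126). Between the ethanol groups the change was smaller, at -0.74 ± 0.24 (adjusted p = 0.0238). That call was lost without WT-EtOH 3 (-0.41, adjusted p = 0.118), the highest WT-EtOH library, and without KO-EtOH 2 (-0.62, adjusted p = 0.0721). It was also lost with total count scaling, no filter, only these groups or limma voom with library quality weights (-0.73 to -0.55).

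Col27a1 encodes a fibrillar chain with a short helix that is best known from cartilage. It had 5.78, 5.62, 5.76 and 10.1 CPM in KO-EtOH, 21.2, 28.5, 17.9 and 15.02 CPM in KO-ctr, 28.8, 22.5, 25.8 and 15.8 CPM in WT-EtOH, and 122, 139.6, 55.2 and 122 CPM in WT-ctr. The WT-ctr libraries lay above all others, the KO-EtOH libraries lay below all others, and KO-ctr and WT-EtOH overlapped. Col27a1 changed by -2.41 ± 0.29 in KO-ctr against WT-ctr (adjusted p = 1.13e-04) and -1.77 ± 0.30 in KO-EtOH against WT-EtOH (adjusted p = 4.92e-04). Ethanol gave -2.24 ± 0.29 in wild type (adjusted p = 5.77e-05) and -1.60 ± 0.30 in knockout (adjusted p = 0.00375).

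The RefSeq promoter windows of these genes, from 250 bases before to 50 after the start, are shown because they moved together. They are on GRCm38, in the direction of transcription, with matches to any of the first 3 motifs given after them, on either strand, in capitals.
Col27a1, chr4:63215162-63215461, plus strand: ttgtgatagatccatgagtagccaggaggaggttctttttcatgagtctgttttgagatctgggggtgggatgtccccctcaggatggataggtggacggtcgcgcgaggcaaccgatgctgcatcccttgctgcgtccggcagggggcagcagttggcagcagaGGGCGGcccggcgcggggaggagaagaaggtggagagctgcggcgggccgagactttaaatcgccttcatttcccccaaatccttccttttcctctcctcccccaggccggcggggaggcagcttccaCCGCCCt
Col5a3, chr9:20815018-20815317, minus strand: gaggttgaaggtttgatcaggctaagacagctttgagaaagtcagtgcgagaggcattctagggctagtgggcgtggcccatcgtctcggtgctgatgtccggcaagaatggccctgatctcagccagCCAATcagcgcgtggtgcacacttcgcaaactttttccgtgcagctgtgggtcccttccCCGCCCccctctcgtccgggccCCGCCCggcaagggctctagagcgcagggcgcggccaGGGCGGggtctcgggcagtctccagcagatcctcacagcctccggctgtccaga
GGGCGG matched 23 of the 38 windows of collagen genes (60.5%), which cover 35 of the 44 chains, and 35.7% of all 32851 windows in the table. CCAAT matched 34.2% of the collagen windows and 37.4% of all, and TATAAA matched 13.2% and 13.6%. CACGTG matched none of the 38 and 7.15% of all, and GTCTAGAC matched none and 0.213% of all. All motifs were searched on both strands, and a match describes the letters of a window only.

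The type I and type III chains, the bulk of scar fibrils, were higher in KO-EtOH than in WT-EtOH for Col1a1 and Col3a1, and KO-EtOH 2 was the highest library of all in both. Col1a1, the alpha1 chain of type I collagen, had 12.8, 53.1, 9.38 and 9.05 CPM in KO-EtOH, 13.5, 9.81, 8.32 and 15.1 CPM in KO-ctr, 3.77, 5.81, 2.62 and 5.52 CPM in WT-EtOH, and 7.68, 12.1, 4.61 and 2.90 CPM in WT-ctr. All KO-EtOH libraries were above all WT-EtOH libraries. The log2 fold change was 2.25 ± 0.59 (adjusted p = 0.00817), and 1.23 (adjusted p = 0.0263) without KO-EtOH 2. It was 0.77 ± 0.57 in KO-ctr against WT-ctr (adjusted p = 0.426), where the groups overlapped. With ethanol in knockout, KO-EtOH against KO-ctr gave 0.85 ± 0.55 (adjusted p = 0.321), or -0.17 (adjusted p = 0.819) without KO-EtOH 2. WT-EtOH against WT-ctr gave -0.63 ± 0.59 (adjusted p = 0.439).

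Col3a1, the chain of type III collagen, had 22.8, 80.2, 16.3 and 10.4 CPM in KO-EtOH, 32.0, 26.5, 20.1 and 38.4 CPM in KO-ctr, 6.97, 11.4, 5.47 and 6.92 CPM in WT-EtOH, and 24.1, 43.0, 14.7 and 12.998 CPM in WT-ctr. KO-EtOH 4 lay within the range of WT-EtOH. The log2 fold change of KO-EtOH against WT-EtOH was 2.08 ± 0.58 (adjusted p = 0.0116), and was not called without KO-EtOH 2 (1.11, adjusted p = 0.0537) or with voom (1.28, adjusted p = 0.0636). With ethanol in knockout, KO-EtOH against KO-ctr gave 0.15 ± 0.54 (adjusted p = 0.885), or -0.82 (adjusted p = 0.209) without KO-EtOH 2. Against WT-ctr, Col3a1 fell in WT-EtOH by 1.63 ± 0.58 on the log2 scale (adjusted p = 0.0417), with no overlap. This call was lost on leaving out any of KO-ctr 1, 2 and 4, WT-ctr 1 and 2, and WT-EtOH 1, 3 and 4, with log2 fold changes of -1.63 to -1.18 and adjusted p of 0.0507 to 0.139, and with total count scaling, no filter or voom.

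Col1a2, the alpha2 chain of type I collagen, had 16.5, 55.8, 11.4 and 9.54 CPM in KO-EtOH, 15.7, 13.9, 11.6 and 18.9 CPM in KO-ctr, 11.7, 13.1, 7.19 and 13.7 CPM in WT-EtOH, and 12.6, 16.5, 10.3 and 7.78 CPM in WT-ctr. The groups overlapped in every comparison. KO-EtOH against WT-EtOH gave 1.03 ± 0.46 (adjusted p = 0.0925; called by DESeq2 at 1.02, adjusted p = 0.0442), and 0.13 (adjusted p = 0.736) without KO-EtOH 2. The log2 ratio of Col1a1 to Col1a2 was -0.37, -0.07, -0.28 and -0.08 in KO-EtOH and -1.61, -1.15, -1.42 and -1.30 in WT-EtOH. The 2 groups did not overlap in this ratio, and KO-EtOH 2 was like the other KO-EtOH libraries in it (difference 1.17, exact permutation p = 0.0286, adjusted 0.098). Col11a2, a chain of cartilage fibrils, was below 2.5 CPM in every library and was not called, although KO-EtOH against WT-EtOH was called lower without WT-EtOH 2 (-1.33, adjusted p = 0.0468).

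**Figure D4:**
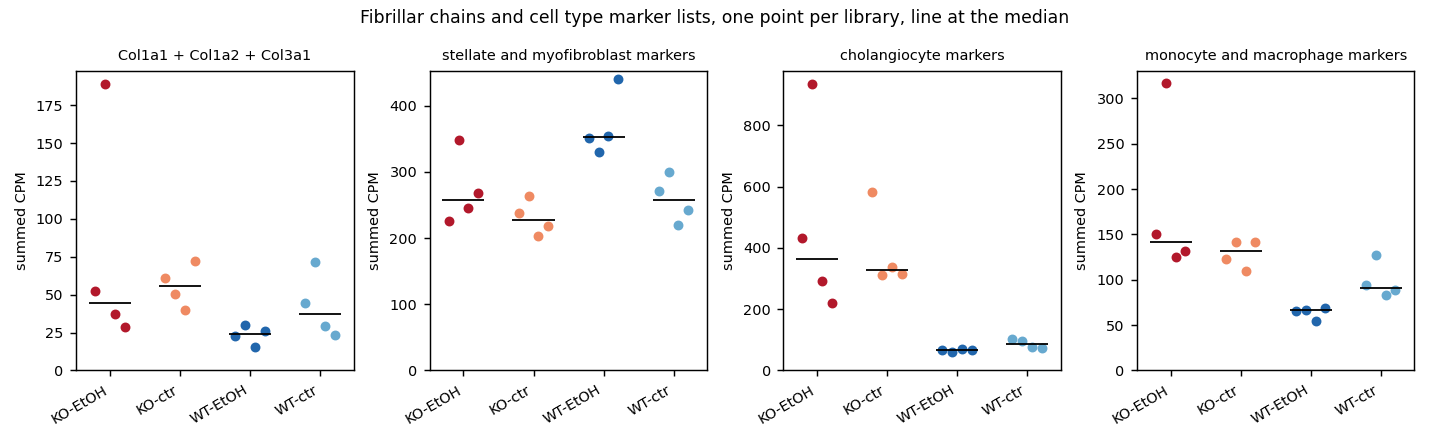
Summed CPM of Col1a1, Col1a2 and Col3a1 and of 3 lists of cell type markers, with 1 point per library and a line at the group median. KO-EtOH 2 has 189 CPM of the 3 chains, against 29.0 to 52.1 CPM in the other KO-EtOH libraries, and is also the highest KO-EtOH library in each marker list.

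The type IV chains Col4a1 and Col4a2 rose with ethanol in both genotypes and were not called between the genotypes on either diet. They form the common trimer of basement membranes. Col4a1 had 27.0, 80.1, 32.7 and 31.8 CPM in KO-EtOH, 20.3, 19.3, 19.9 and 21.1 CPM in KO-ctr, 36.9, 61.8, 39.8 and 61.8 CPM in WT-EtOH, and 15.02, 27.4, 20.3 and 15.7 CPM in WT-ctr. No ethanol library overlapped the control libraries of its genotype. Col4a1 changed by 1.35 ± 0.31 in wild type (adjusted p = 0.00409) and 1.09 ± 0.31 in knockout (adjusted p = 0.0306). The call in knockout was lost without KO-EtOH 2 (0.60, adjusted p = 0.0725) and without any of the 4 KO-ctr libraries (1.07 to 1.11, adjusted p = 0.0632 to 0.0797). It was also lost with total count scaling, no filter or only these groups (1.09 in each). Between genotypes after ethanol the change was -0.22 ± 0.30 (adjusted p = 0.593), but -0.71 (adjusted p = 0.0154) without KO-EtOH 2.

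Col4a2 had 20.3, 53.9, 26.5 and 28.1 CPM in KO-EtOH, 17.2, 15.2, 13.5 and 14.4 CPM in KO-ctr, 27.5, 34.8, 33.4 and 40.4 CPM in WT-EtOH, and 11.1, 18.8, 13.7 and 14.9 CPM in WT-ctr. Again no ethanol library overlapped the controls of its genotype. The rise was 1.22 ± 0.24 on the log2 scale in wild type (adjusted p = 0.00134) and 1.09 ± 0.24 in knockout (adjusted p = 0.0084), or 0.73 (adjusted p = 0.0118) without KO-EtOH 2. The log2 ratio of Col4a1 to Col4a2 averaged 0.36 ± 0.17 in KO-EtOH, 0.42 ± 0.16 in KO-ctr, 0.53 ± 0.25 in WT-EtOH and 0.40 ± 0.23 in WT-ctr (SD, n = 4 each). Its 4 comparisons gave exact permutation p of 0.314 to 0.914.

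The genes start head to head on chromosome 8, Col4a2 at position 11312805 on the plus strand and Col4a1 at 11312826 on the minus strand, and their first exons overlap by 22 bases. The stretch that both RefSeq promoter windows share is shown because these chains moved together, on the plus strand with a GGGCGG match in capitals.
Col4a1 and Col4a2, chr8:11312777-11312854: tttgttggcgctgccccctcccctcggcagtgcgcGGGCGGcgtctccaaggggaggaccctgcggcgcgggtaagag
The other tested type IV chains were not called in any pairwise comparison, and Col4a6 did not pass the filter and was not tested. Col4a3 and Col4a4 had group means of 0.696 to 0.979 CPM, and 4.15% of the 75-base stretches of Col4a3 transcripts occur in another gene. Col4a5, whose trimer with Col4a3 and Col4a4 is known from kidney filters, gave 1.04 ± 0.43 in KO-EtOH against WT-EtOH (adjusted p = 0.0642), and 0.56 (adjusted p = 0.294) without KO-EtOH 2.

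Among the beaded filament chains, Col6a3 was higher in KO-EtOH than in WT-EtOH. It is the large chain that joins Col6a1 and Col6a2 in the type VI trimer. Col6a3 had 8.42, 21.1, 6.41 and 6.30 CPM in KO-EtOH, 15.002, 11.9, 7.95 and 11.7 CPM in KO-ctr, 4.96, 5.37, 3.63 and 4.39 CPM in WT-EtOH, and 7.90, 11.2, 5.78 and 4.18 CPM in WT-ctr. The ethanol groups did not overlap. The log2 fold change was 1.21 ± 0.38 (adjusted p = 0.0209), which was lost without KO-EtOH 2 (0.62, adjusted p = 0.0981), without WT-EtOH 3 (1.12, adjusted p = 0.0515), with no filter (1.20, adjusted p = 0.0596) and with voom (0.73, adjusted p = 0.13).

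Col6a1 had 6.50, 18.3, 6.00 and 5.93 CPM in KO-EtOH, 8.53, 8.45, 9.67 and 9.13 CPM in KO-ctr, 5.37, 8.31, 5.77 and 8.50 CPM in WT-EtOH, and 8.46, 9.53, 7.62 and 5.57 CPM in WT-ctr. Col6a2 had 4.75, 12.5, 4.04 and 3.81 CPM in KO-EtOH, 6.30, 6.03, 4.97 and 6.00 CPM in KO-ctr, 4.597, 4.87, 2.73 and 4.84 CPM in WT-EtOH, and 5.12, 6.02, 3.26 and 2.32 CPM in WT-ctr. Neither was called in a pairwise comparison, and KO-EtOH 2 was the highest library of all 16 in both. Without it, KO-EtOH against WT-EtOH gave -0.18 for Col6a1 (adjusted p = 0.497) and -0.02 for Col6a2 (adjusted p = 0.964). Col6a6, a chain related to Col6a3, had 0.18, 0.68, 0.42 and 0.44 CPM in KO-EtOH, 1.89, 0.71, 1.30 and 0.64 CPM in KO-ctr, 0.52, 0.25, 0.36 and 0.34 CPM in WT-EtOH, and 0.39, 1.12, 0.61 and 0.70 CPM in WT-ctr. It fell in knockout with ethanol by 1.38 ± 0.44 on the log2 scale (adjusted p = 0.0446), with overlap between the groups. That call was lost on leaving out any of KO-EtOH 1, 3 and 4, KO-ctr 1 and 3, WT-EtOH 2 and 3, and WT-ctr 3 and 4 (adjusted p = 0.0512 to 0.158), and with total count scaling, no filter, only these groups or the replicate block (-1.37, adjusted p = 0.067).

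Of the FACIT chains, Col20a1 and Col12a1 rose with ethanol in wild type. Col20a1 had 0.84, 1.02, 1.72 and 1.43 CPM in KO-EtOH, 0.40, 0.41, 0.97 and 0.74 CPM in KO-ctr, 8.26, 8.12, 4.40 and 22.2 CPM in WT-EtOH, and 2.34, 1.22, 2.09 and 2.21 CPM in WT-ctr. The WT-EtOH libraries were above all others and the KO-ctr libraries were below all WT-ctr libraries. Col20a1 changed by 2.45 ± 0.42 in WT-EtOH against WT-ctr (adjusted p = 3.97e-04) and -3.09 ± 0.44 in KO-EtOH against WT-EtOH (adjusted p = 8.75e-05). In KO-EtOH against KO-ctr it was 0.97 ± 0.51 (95% interval -0.12 to 2.05, adjusted p = 0.219). On control diet it was -1.61 ± 0.49 (adjusted p = 0.0422), which was lost on leaving out any of KO-ctr 1, 2 and 4, KO-EtOH 2 and 4, and WT-ctr 1, 3 and 4 (adjusted p = 0.052 to 0.116), and with no filter (-1.60, adjusted p = 0.101).

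Col12a1, which binds the surface of type I fibrils, had 2.47, 5.22, 3.92 and 3.99 CPM in KO-EtOH, 1.43, 1.89, 1.41 and 1.91 CPM in KO-ctr, 8.47, 4.00, 3.80 and 3.71 CPM in WT-EtOH, and 1.95, 3.67, 2.52 and 2.61 CPM in WT-ctr. Ethanol and control libraries did not overlap within a genotype, and WT-EtOH 1 was more than double the next WT-EtOH library. The rise was 1.23 ± 0.31 on the log2 scale in knockout (adjusted p = 0.0143). In wild type it was 0.90 ± 0.29 (adjusted p = 0.0256), which was lost without WT-EtOH 1 (0.51, adjusted p = 0.14) and without WT-ctr 1, 3 or 4 (0.77 to 0.88, adjusted p = 0.058 to 0.0796), and with total count scaling (0.77, adjusted p = 0.0791). The FACIT chains Col14a1 and Col16a1 were not called. Col16a1 was lower in all WT-EtOH libraries than in WT-ctr (-0.73 ± 0.38, adjusted p = 0.148), which was called without KO-EtOH 2 (adjusted p = 0.031) and with only these groups (adjusted p = 0.0491). Col14a1 lay between 18.0 and 35.6 CPM in all libraries.

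Col13a1, a chain that spans the cell membrane and is known from the junction of nerve and muscle, rose with ethanol in both genotypes. It had 7.40, 7.54, 8.37 and 6.74 CPM in KO-EtOH, 2.52, 4.08, 2.70 and 3.34 CPM in KO-ctr, 11.7, 13.6, 16.1 and 13.6 CPM in WT-EtOH, and 3.62, 6.23, 3.56 and 2.73 CPM in WT-ctr. Ethanol libraries lay above the control libraries of both genotypes, and WT-EtOH lay above KO-EtOH, with no overlap. On the log2 scale the change was 1.76 ± 0.21 in wild type (adjusted p = 1.95e-05), 1.25 ± 0.22 in knockout (adjusted p = 0.00175) and -0.87 ± 0.20 in KO-EtOH against WT-EtOH (adjusted p = 0.00338).

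Col8a1, a short chain of vessel wall networks, had 0.60, 1.53, 0.36 and 0.94 CPM in KO-EtOH, 0.80, 0.53, 0.54 and 0.64 CPM in KO-ctr, 0.46, 0.37, 0.18 and 0.23 CPM in WT-EtOH, and 0.50, 0.53, 0.74 and 0.58 CPM in WT-ctr. The ethanol groups overlapped, and their log2 fold change was 1.44 ± 0.42 (adjusted p = 0.0133), which was lost without KO-EtOH 2 (0.99, adjusted p = 0.0693) and with voom (0.93, adjusted p = 0.118). The multiplexins were not called. Col18a1 had 779, 701, 841 and 845 CPM in KO-EtOH, 911, 888, 1011 and 1031 CPM in KO-ctr, 795.5, 740.1, 932 and 712 CPM in WT-EtOH, and 928, 783, 1047 and 962 CPM in WT-ctr. Its ethanol changes were -0.28 ± 0.12 in knockout (95% interval -0.54 to -0.02, adjusted p = 0.142) and -0.23 ± 0.12 in wild type (adjusted p = 0.17), and the wild-type change was called with total count scaling (-0.36, adjusted p = 0.0269). Col15a1 gave 0.58 ± 0.26 in KO-EtOH against KO-ctr (adjusted p = 0.151).

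**Figure D5:**
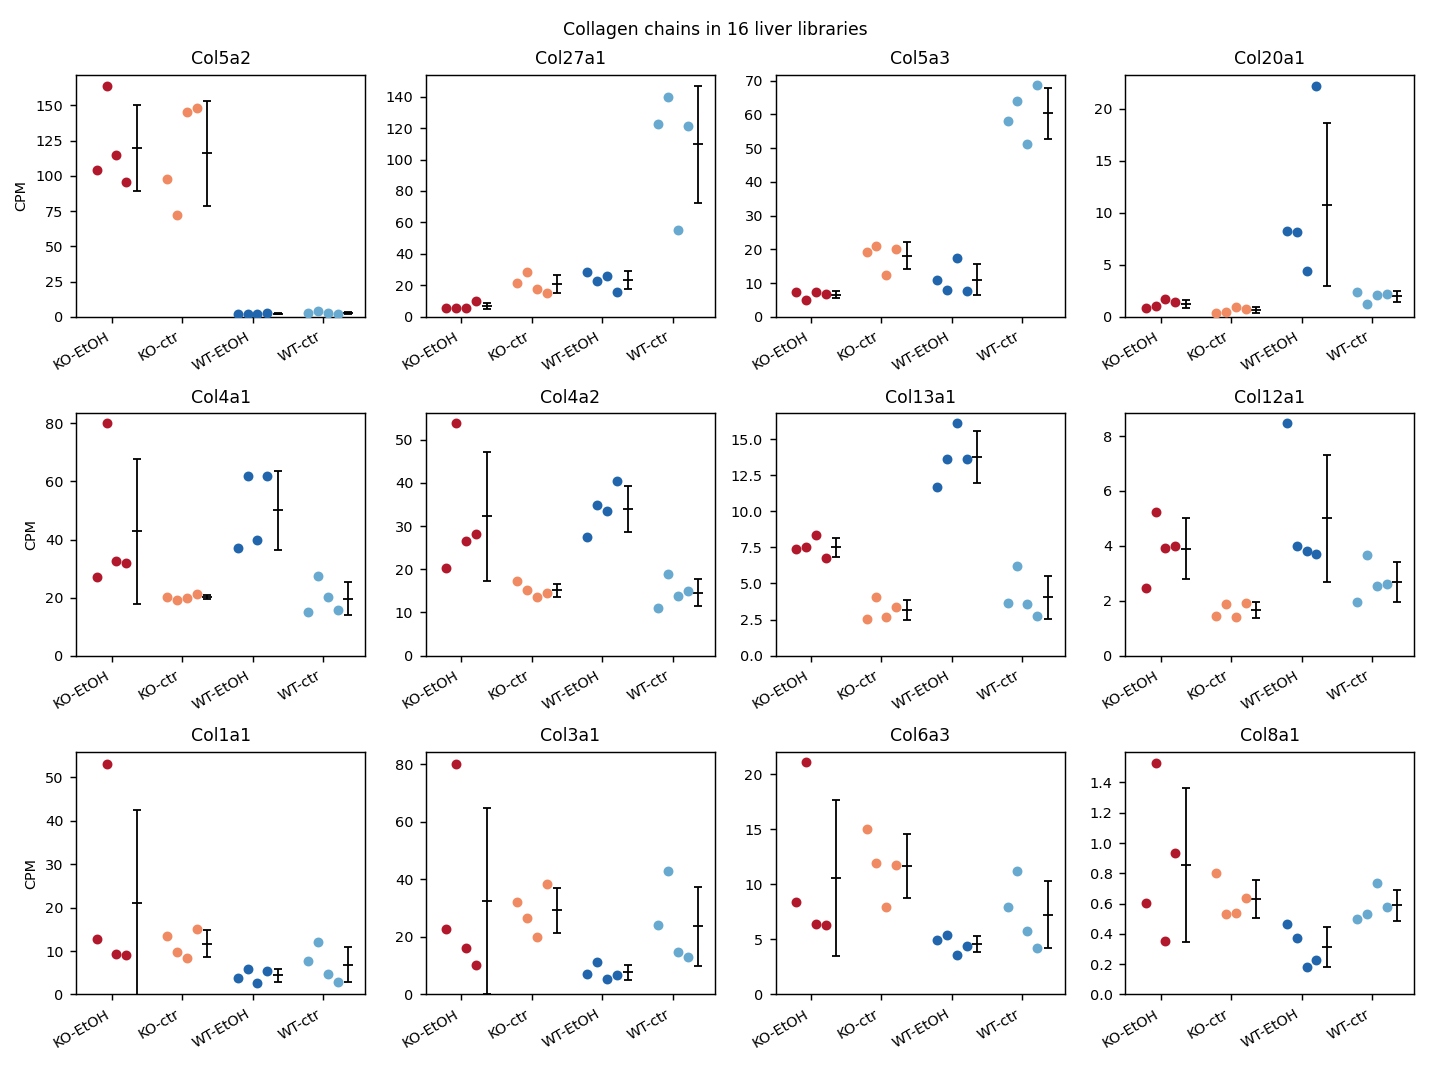
CPM of 12 called chains in each library, with the mean and SD of each group at the right of its 4 points (a bar that would pass below 0 ends at the axis). The panels differ in which group is highest: both knockout groups for Col5a2, WT-ctr for Col27a1 and Col5a3, WT-EtOH for Col20a1 and Col13a1, and the single library KO-EtOH 2 for Col1a1, Col3a1 and Col6a3.

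Whether the ethanol response differed between genotypes was tested as the interaction, (KO-EtOH minus KO-ctr) minus (WT-EtOH minus WT-ctr). By edgeR 0 of 25 chains were called, beside 1.81% of all genes, 0.523% higher and 1.28% lower, and 4 had an unadjusted p under 0.05. DESeq2 and limma voom with quality weights also called 0. The 4 were Col5a3 (1.00 ± 0.33, adjusted p = 0.118), Col8a1 (1.34 ± 0.58, adjusted p = 0.225), Col3a1 (1.78 ± 0.79, adjusted p = 0.238) and Col20a1 (-1.48 ± 0.67, adjusted p = 0.239). Without WT-EtOH 3, Col5a3 was called (1.32, adjusted p = 0.0157). Without KO-EtOH 2 the value was 0.81 for Col3a1 (adjusted p = 0.448), 0.89 for Col8a1 (adjusted p = 0.375), 1.11 for Col5a3 (adjusted p = 0.0942) and -1.40 for Col20a1 (adjusted p = 0.317). An ethanol call in a single genotype, as for Col20a1, was therefore not shown to differ between genotypes.

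The 19 chains below the filter held 0 to 104 counts over all 16 libraries, with none for Col26a1 and 1 each for Col2a1, Col6a4, Col11a1 and Col19a1. Over the 4 libraries of a group, Col4a6 had 54 counts in KO-EtOH, 24 in KO-ctr, 9 in WT-EtOH and 17 in WT-ctr. Col7a1, the chain of the anchoring fibrils of skin, had 9, 11, 33 and 40 counts in the same order of groups. Col25a1, a membrane chain of neurons, had 1, 8, 19 and 45 counts. In the authors' deposited table, which is signed as wild type over knockout, Col25a1 had 2.52 on control diet (adjusted p = 0.0279) and 3.92 after ethanol (adjusted p = 0.00848), and Col7a1 had 1.90 (adjusted p = 0.0301) and 1.81 (adjusted p = 0.031). The authors' deposited table held 39 of the chains and called 6, 14, 8 and 7 of them in the order of the comparisons above. All 28 calls made here were among its calls. Its further calls were Col7a1 and Col25a1 on control diet, and Col1a2, Col4a6, Col7a1, Col22a1 and Col25a1 between the ethanol groups. There, as wild type over knockout, Col4a6 had -2.61 (adjusted p = 0.00285), Col22a1 -3.67 (adjusted p = 0.0339) and Col1a2 -1.03 (adjusted p = 0.048).

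Genes that modify and fold collagen chains showed a few calls in each comparison. The counts of this and every later list are to be read against the share of all genes called. That share was 12.3% in KO-ctr against WT-ctr, 38.7% in KO-EtOH against WT-EtOH, 33.5% in WT-EtOH against WT-ctr and 14.1% in KO-EtOH against KO-ctr. Of 28 tested members of a processing list of 31, 1 was higher and 2 lower in KO-ctr than in WT-ctr, 5 higher and 3 lower in KO-EtOH than in WT-EtOH, 3 higher and 1 lower in WT-EtOH than in WT-ctr, and 4 higher and 0 lower in KO-EtOH than in KO-ctr. The list medians were 0.07, 0.38, 0.26 and 0.29 on the log2 scale. Without KO-EtOH 2 the median of KO-EtOH against WT-EtOH was 0.06, with 4 higher and 4 lower, and 6 were higher and 1 lower in WT-EtOH than in WT-ctr. P4ha2, a prolyl hydroxylase that stabilises the helix, was higher in knockout on control diet (1.41 ± 0.14, adjusted p = 7.29e-06) and after ethanol (1.21 ± 0.13, adjusted p = 1.1e-05). Serpinh1, the collagen chaperone HSP47, was higher in KO-EtOH than in WT-EtOH (0.96 ± 0.22, adjusted p = 0.00318). Colgalt2, which adds galactose to collagen, was lower in knockout on both diets (-1.62 ± 0.47 and -1.92 ± 0.45). Plod1, a lysyl hydroxylase, rose with ethanol by 0.56 ± 0.09 in each genotype. Bmp1, which cleaves the propeptides of fibrillar chains, was not called in any pairwise comparison.

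The other matrix lists were read in the same way. Of 20 tested fibril-associated genes, 0 were called in KO-ctr against WT-ctr, 1 was higher and 1 lower in KO-EtOH against WT-EtOH, 4 higher and 0 lower in WT-EtOH against WT-ctr, and 3 higher and 1 lower in KO-EtOH against KO-ctr. Dcn, the small proteoglycan decorin, rose with ethanol in wild type (0.73 ± 0.16, adjusted p = 0.00216) and in knockout (0.58 ± 0.16, adjusted p = 0.021, or 0.41, adjusted p = 0.0618, without KO-EtOH 2), and Fn1, fibronectin, was not called. Of 15 basement membrane genes, the higher and lower counts were 3 and 1, 4 and 0, 3 and 4, and 2 and 1 in the same order of comparisons. Nid1, which links laminin to type IV collagen, rose with ethanol in wild type (2.46 ± 0.56, adjusted p = 0.00439) and in knockout (1.75 ± 0.55, adjusted p = 0.0479, or 0.99, adjusted p = 0.188, without KO-EtOH 2), beside Col4a1 and Col4a2. Lama3, a laminin chain, fell with ethanol by 3.02 ± 0.42 in wild type (adjusted p = 8.32e-05). The list medians were 0.16, 0.22, 0.32 and 0.38 for the fibril-associated list and 0.09, 0.29, 0.20 and 0.16 for the basement membrane list. Without KO-EtOH 2 the medians of the 2 lists in both comparisons with KO-EtOH were below 0. In KO-EtOH against WT-EtOH the fibril-associated list then had 0 higher and 2 lower (median -0.16) and the basement membrane list 3 higher and 2 lower (median -0.07). In KO-EtOH against KO-ctr the fibril-associated list had 1 higher and 0 lower (median -0.09) and the basement membrane list 1 higher and 2 lower (median -0.10).

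Of 10 tested collagen receptors, 0 were called on control diet, 2 were higher and 3 lower in KO-EtOH than in WT-EtOH, 3 higher and 1 lower in WT-EtOH than in WT-ctr, and 1 higher and 1 lower in KO-EtOH than in KO-ctr, with list medians of 0.16, -0.05, 0.22 and 0.35. Without KO-EtOH 2, 2 were higher on control diet and 1 was higher and 0 lower in KO-EtOH than in KO-ctr, with a median of -0.07. Ddr1, a tyrosine kinase that binds collagen, was higher in KO-EtOH than in WT-EtOH (2.79 ± 0.62, adjusted p = 0.00283, or 1.53, adjusted p = 0.00159, without KO-EtOH 2), and Itgb1, the shared beta chain of collagen-binding integrins, was not called. Of 18 genes of TGF-beta signalling, a known inducer of fibrillar collagen, 0 were called on control diet, with a median of 0.14. Between the ethanol groups 4 were higher and 6 lower in KO-EtOH, with a list median of -0.33, and 4 were higher and 0 lower in WT-EtOH against WT-ctr, with a median of 0.39. In KO-EtOH against KO-ctr, 4 were higher and 1 lower, with a median of 0.27, or 4 higher and 2 lower, with a median of 0.01, without KO-EtOH 2. Tgfbr2, the type II receptor, rose with ethanol by 1.74 ± 0.14 in wild type (adjusted p = 5.22e-07) and 0.71 ± 0.13 in knockout (adjusted p = 0.00285), and Ctgf, a target of the pathway, rose by 1.87 ± 0.36 in wild type (adjusted p = 9.16e-04). Col1a1 and Col1a2 were not called in either ethanol comparison. Col3a1 was called lower with ethanol in wild type (-1.63, adjusted p = 0.0417, lost in many alternatives) and was not called in knockout. The part of this pathway in the collagen results was not tested.

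All 16 stellate cell and myofibroblast markers were tested. None was called on control diet, 2 were higher and 5 lower in KO-EtOH than in WT-EtOH, 5 were higher and 0 lower in WT-EtOH than in WT-ctr, and 1 was higher and 0 lower in KO-EtOH than in KO-ctr, with list medians of -0.11, -0.22, 0.30 and 0.25. Of all genes tested, 12.3%, 38.7%, 33.5% and 14.1% were called in the same order of comparisons. Without KO-EtOH 2, 0 markers were higher and 5 lower in KO-EtOH than in WT-EtOH (median -0.48), and the median of KO-EtOH against KO-ctr was 0.05. Their sum ran from 226 to 348 CPM in KO-EtOH, 203 to 263 CPM in KO-ctr, 329.7 to 441 CPM in WT-EtOH and 219.6 to 300.3 CPM in WT-ctr. Lrat, which stores retinoid in quiescent stellate cells, was lower in KO-EtOH than in WT-EtOH (-0.98 ± 0.26, adjusted p = 0.00733), while Pdgfrb, a receptor of activated stellate cells, was higher (0.99 ± 0.34, adjusted p = 0.0304), but not called without KO-EtOH 2 (0.29, adjusted p = 0.165). Pdgfra rose with ethanol by 1.47 ± 0.25 in wild type (adjusted p = 3.36e-04) and by 1.03 ± 0.24 in knockout (adjusted p = 0.0115), and Acta2, the actin of myofibroblasts, was not called. Their part in the collagen results was not tested.

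Most cholangiocyte markers tested were called higher in knockout livers. Of 10 tested members of a list of 11, 6 were higher and 0 lower in KO-ctr than in WT-ctr, 9 higher and 0 lower in KO-EtOH than in WT-EtOH, 1 higher and 0 lower in WT-EtOH than in WT-ctr, and none was called in KO-EtOH against KO-ctr, with list medians of 2.01, 2.91, -0.60 and 0.31. Without KO-EtOH 2, 8 were higher on control diet and 9 in KO-EtOH than in WT-EtOH (median 2.28), and the median of KO-EtOH against KO-ctr was -0.32. Their sum ran from 221 to 935 CPM in KO-EtOH, 311 to 583 CPM in KO-ctr, 59.6 to 70.3 CPM in WT-EtOH and 73.1 to 101 CPM in WT-ctr. The knockout and wild-type ranges did not overlap, as was the case for Col5a2, and the part of these cells in the Col5a2 result was not tested. Spp1, osteopontin, was higher in knockout on control diet (2.62 ± 0.42, adjusted p = 0.00115) and after ethanol (3.70 ± 0.44, adjusted p = 3.33e-05).

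Immune markers also separated the ethanol groups. Of 10 monocyte and macrophage markers, 1 was higher and 0 lower in KO-ctr than in WT-ctr, 9 higher and 0 lower in KO-EtOH than in WT-EtOH, 1 higher and 6 lower in WT-EtOH than in WT-ctr, and 2 higher and 0 lower in KO-EtOH than in KO-ctr. Without KO-EtOH 2, 8 were higher in KO-EtOH than in WT-EtOH, and 0 higher and 1 lower in KO-EtOH than in KO-ctr. Their sum ran from 125 to 317 CPM in KO-EtOH, 109.6 to 142 CPM in KO-ctr, 55.0 to 68.9 CPM in WT-EtOH and 82.9 to 128 CPM in WT-ctr. Of 7 Kupffer cell markers, 0 were called on control diet, 6 were higher in KO-EtOH than in WT-EtOH, 6 were lower in WT-EtOH than in WT-ctr, and 1 was lower in KO-EtOH than in KO-ctr. Their sum ran from 235 to 377 CPM in KO-EtOH, 493 to 646 CPM in KO-ctr, 139.5 to 201 CPM in WT-EtOH and 484 to 691 CPM in WT-ctr. C6, a complement component, made up most of that sum, with means of 161 CPM in KO-EtOH, 462 CPM in KO-ctr, 113 CPM in WT-EtOH and 431 CPM in WT-ctr. The list median of KO-EtOH against KO-ctr was 0.01.

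Of 11 sinusoidal endothelial markers, 1 was higher and 0 lower in KO-ctr than in WT-ctr, 2 higher and 0 lower in KO-EtOH than in WT-EtOH, 3 higher and 2 lower in WT-EtOH than in WT-ctr, and 3 higher and 1 lower in KO-EtOH than in KO-ctr. The list medians were 0.02, -0.03, 0.28 and -0.03 in the same order. Lyve1, a hyaluronan receptor, rose with ethanol by 2.61 ± 0.36 in wild type (adjusted p = 1.02e-04) and by 2.73 ± 0.37 in knockout (adjusted p = 5.19e-04). Other members went the other way. Mean Fcgr2b was 33.6 CPM in WT-ctr and 18.2 CPM in WT-EtOH, and mean Stab2 was 66.0 CPM in KO-ctr and 41.8 CPM in KO-EtOH. The sum of the list ran from 269.7 to 309.5 CPM in KO-EtOH, 252 to 296 CPM in KO-ctr, 230.3 to 277 CPM in WT-EtOH and 195 to 307 CPM in WT-ctr, and these ranges overlapped.

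KO-EtOH 2, the library with the most Col1a1, Col3a1 and Col4a1, was also the highest KO-EtOH library in the sums of the stellate and myofibroblast (348 CPM), portal fibroblast (208 CPM), cholangiocyte (935 CPM) and monocyte and macrophage (317 CPM) markers. In the mesothelium sum it was highest by little (3.23 CPM, next 3.19 CPM). It lay within the range of the other KO-EtOH libraries for Kupffer cell (281 CPM) and sinusoidal endothelial (274.5 CPM) markers. For smooth muscle markers it was lowest (63.2 CPM, against 65.65 to 82.1 CPM). It was the lowest KO-EtOH library in the hepatocyte sum, at 55550 CPM, against 69180 to 110700 CPM in the other 3. That sum ran from 70080 to 72260 CPM in KO-ctr, 125600 to 160100 CPM in WT-EtOH and 112800 to 132100 CPM in WT-ctr. Of 10 hepatocyte markers, 0 were higher and 1 lower in KO-ctr than in WT-ctr, 0 higher and 4 lower in KO-EtOH than in WT-EtOH, 5 higher and 0 lower in WT-EtOH than in WT-ctr, and 3 higher and 0 lower in KO-EtOH than in KO-ctr, or 5 higher and 0 lower without KO-EtOH 2. The list medians were -0.07, -0.29, 0.37 and 0.24 in the same order of comparisons. Alb, albumin, was lower in knockout on control diet (-1.23 ± 0.22, adjusted p = 0.00175) and after ethanol (-0.95 ± 0.22, adjusted p = 0.003). Most of the genotype difference of the hepatocyte sum was carried by Alb. Its means were 48240 CPM in KO-EtOH, 34440 CPM in KO-ctr, 93010 CPM in WT-EtOH and 80560 CPM in WT-ctr.

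Portal fibroblast markers summed to 148 to 208 CPM in KO-EtOH, 145 to 192 CPM in KO-ctr, 97.5 to 131 CPM in WT-EtOH and 98.3 to 118 CPM in WT-ctr. Gas6 carried the genotype difference of that sum, with means of 92.1 CPM in KO-EtOH, 97.5 CPM in KO-ctr, 38.8 CPM in WT-EtOH and 33.3 CPM in WT-ctr, whereas Cdh2, the next in level, had means of 57.2, 58.8, 58.4 and 62.1 CPM in the same order. Of 7 tested members of that list of 10, 1 was higher in KO-ctr than in WT-ctr, 2 were higher in KO-EtOH than in WT-EtOH, and 0 were called with ethanol in either genotype. Gas6, a ligand of receptor tyrosine kinases, was higher in knockout on control diet (1.55 ± 0.30, adjusted p = 0.00359) and after ethanol (1.25 ± 0.30, adjusted p = 0.00436). Of 3 tested smooth muscle markers in a list of 6, 1 was higher and 1 lower in KO-EtOH than in WT-EtOH and 0 were called elsewhere. Of 5 tested mesothelial markers in a list of 7, 3 were lower in KO-EtOH than in WT-EtOH and 2 were lower in KO-EtOH than in KO-ctr. Without KO-EtOH 2 these 2 counts were 1 and 1, and 0 smooth muscle markers were called between the ethanol groups. Among the cell type markers only Krt14 was at 0 in a whole group, in KO-EtOH and in WT-EtOH. The part of these cells in the collagen results was not tested.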

How the data were processed

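The authors deposited raw read counts per gene. Per the labels' protocols, stranded libraries of polyA RNA gave single reads of 75 bases. The submitters' processing notes name Trimmomatic 0.36, HISAT2 2.1.0, HTSeq and the GRCm38 build. For counting, the strand option, HTSeq version and annotation are not stated there. Without known strand and multiple-mapping options, counts of overlapping or similar genes are uncertain.

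The 7436 of 55487 rows without a symbol held 0.227 to 0.479% of a library's counts and were left out. One edgeR 4.0.16 quasi-likelihood model (robust, TMM, filterByExpr) with 4 group means was fitted to all 16 libraries in R 4.3.3 (BCV 0.205, with 12 residual df), and p-values were adjusted by Benjamini-Hochberg over 14346 genes. Partner chain ratios used log2 CPM with a prior count of 2 and exact permutation. The alternatives were limma 3.58.1 voom with library quality weights, DESeq2 1.42.0, RLE or total count scaling, no filter, only the groups compared, a replicate block and each library left out. The chains and the marker and pathway lists were chosen with earlier results of these data known. Chains called anywhere, and the main liver chains whatever their result, are given by library; from each list some called members of smallest p and some uncalled members of highest mean are named. The authors also deposited log2 fold changes and adjusted p-values of their own comparisons, under DESeq2 column names per the file headers. Intervals cover the spread between these libraries only. Coordinates are from GENCODE M21, and promoters from RefSeq, both GRCm38.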

Additional observations from a re-analysis of the deposited data

Results flagged for a closer look

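A library was marked where its gap to the nearest of the other 3 of its group, over the whole range of the group, was above 0.829. For normal values about 1 in 20 groups would be by chance, and 12 of 104 groups were, 7 of them by KO-EtOH 2. The rule was applied to CPM without a log, and all chains come from the same 16 libraries. The groups are therefore not independent, and the count of 12 is a description only. In KO-EtOH 2 the level of Col1a1 was 53.1 CPM, against 9.05 to 12.8 CPM in the other KO-EtOH libraries, that of Col1a2 was 55.8 CPM against 9.54 to 16.5 CPM, and that of Col4a1 was 80.1 CPM against 27.0 to 32.7 CPM. The same library had 18.3 CPM of Col6a1, against 5.93 to 6.50 CPM, 12.5 CPM of Col6a2, against 3.81 to 4.75 CPM, 21.1 CPM of Col6a3, against 6.30 to 8.42 CPM, and 35.6 CPM of Col14a1, against 19.3 to 20.5 CPM.

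The other 5 marks lay in 4 other libraries. WT-EtOH 3 was lowest in Col6a2, at 2.73 CPM against 4.597 to 4.87 CPM, and in Col4a5, at 0.357 CPM against 1.29 to 1.45 CPM. WT-EtOH 1 was highest in Col12a1, at 8.47 CPM against 3.71 to 4.00 CPM. KO-EtOH 4 was highest in Col27a1, at 10.1 CPM against 5.62 to 5.78 CPM, and WT-ctr 1 was highest in Col4a4, at 1.67 CPM against 0.307 to 0.532 CPM.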

How the results depend on the processing

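Of the 28 calls of a chain in a pairwise comparison, 19 held under every alternative. Of 643 alternative values of the 28, 60 were no longer called and 0 had the other sign. Of 2200 alternative values of the 97 uncalled results, interactions included, 15 were called. With voom and library quality weights together, the number of chains called was 7 in KO-ctr against WT-ctr and 5 in KO-EtOH against WT-EtOH, where the main values were 4 and 9. That fit also called Col1a1 (1.41), Col6a2 (0.88) and Col6a3 (1.08) higher in KO-ctr. Leaving out each library gave 3 to 4, 6 to 11, 6 to 9 and 5 to 7 chains, and 0 to 1 for the interaction, which was 1 without WT-EtOH 3. Scaling to the total count, chosen after seeing the data, moved the median of all genes by 0.118, 0.203, -0.137 and -0.052 (log2) in the 4 comparisons. Tsc1 in KO-ctr against WT-ctr was then -0.40 and not called, and -0.65 to -0.46 when leaving out a library. In KO-EtOH against WT-EtOH it was -0.17 with total count scaling, -0.35 with no filter, -0.35 with only the groups compared and -0.40 with weighted voom, none called, and -0.43 to -0.28 when leaving out a library, called in 7 of 16. In KO-EtOH against KO-ctr it was called with weighted voom (-0.40). The alternatives of Tsc1 were also chosen after seeing the data. Col4a5 in KO-EtOH against WT-EtOH was called with total count scaling (1.30) and without KO-EtOH 3 or 4 (1.24 and 1.25), and Col1a2 without KO-EtOH 3 or 4 (1.26 and 1.29), while without KO-EtOH 2 they were 0.56 and 0.13. The causes were not tested.

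The replicate numbers share no stated source, and 7 of 24 correlations of same-numbered deviations were above 0.1 (-0.146 to 0.414), so they were not taken as pairs. With the replicate block 4, 9, 8, 6 and 0 chains were called, Col6a6 was lost in KO-EtOH against KO-ctr (-1.37, adjusted p = 0.067), and Tsc1 in KO-EtOH against WT-EtOH was -0.36 and not called. Partner ratios had no leave-one-out test. Chains of 0.2 to 2 CPM rest on few reads, and differences in them may not be detectable at this depth.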
